A study of Arabidopsis thaliana with 6 samples.

Results

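The genes described here are 48 messenger RNAs that conserved plant microRNAs are known to regulate, chosen by gene identifier from 12 microRNA families. Of these, 47 were in the table of 19955 genes from the series, and SPL13A was not analysed here. The families are the SPL genes (miR156), NAC genes (miR164), HAM genes (miR171), HD-ZIP III genes (miR165 and miR166), ARF genes (miR160 and miR167), AP2-like genes (miR172), TCP genes (miR319), MYB genes (miR159), GRF genes (miR396), CSD genes with their copper chaperone (miR398), TIR1/AFB genes (miR393) and NF-YA genes (miR169). With the ARF genes counted apart by microRNA they make 13 groups. Gene expression was measured by RNA sequencing of untreated whole seedlings of Arabidopsis thaliana, accession Col-0, at 7 days and in long days. The groups are a mutant of the MIR163 locus (mir163, 3 libraries) and the wild type (WT, 3 libraries). The labels call the libraries biological replicates and do not give the allele of mir163. Each gene has 1 FPKM value per genotype (a level for which fragments are divided by transcript length and by sequencing total) from the authors, so no spread between libraries can be given and the depth is unknown.

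MicroRNAs of plants sit in an Argonaute protein and pair along nearly their whole length with a site in a messenger RNA, which is then cut or kept from translation. The conserved families mostly act on transcription factors of development: miR156 and miR172 in the passage from juvenile to adult leaves, miR164, miR165, miR166 and miR171 in meristems and organ boundaries, miR319 and miR396 in leaf growth, and miR160, miR167 and miR393 in the auxin response. The family of miR398 acts on copper proteins that remove superoxide. None of these families is miR163, which targets methyltransferases, so the comparison of mir163 with WT asks here whether targets of other microRNAs differ in seedlings that lack it.

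The mutated locus and the tissue matched their labels. MIR163 had an FPKM of 0.0726 in mir163 and 20.5 in WT, and its target PXMT1, a methyltransferase, had 47.6 in mir163 and 1.32 in WT. AT1G15125, another methyltransferase regulated by miR163, had 33.3 in mir163 and 9.99 in WT. The p in the authors' deposited table was 0.180 for MIR163, 5e-05 for PXMT1 and 0.0026 for AT1G15125. Markers of green shoot (RBCS1A, LHCB1.3, GLK1), of root (CASP1, PRP3, SHR) and of the shoot meristem (STM) were all present in both genotypes, the lowest being STM with 5.06 in mir163 and 5.39 in WT, while WUS and CLV3 were not analysed here. In RNA of whole seedlings, fewer cells of a type and less RNA per cell cannot be told apart.

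The guide strands of these families are set out first, since the members are listed as their targets. They are read from the RefSeq annotation and genome of TAIR10.1, 5′ to 3′, written with T as in the genome, with the seed (bases 2 to 8) in capitals.
miR156a-5p: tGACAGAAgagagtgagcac
miR164a: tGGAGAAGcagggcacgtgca
miR171a-3p: tGATTGAGccgcgccaatatc
miR165a-3p: tCGGACCAggcttcatccccc
miR166a-3p: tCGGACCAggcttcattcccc
miR167a-5p: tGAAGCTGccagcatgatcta
miR160a-5p: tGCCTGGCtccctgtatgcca
miR172a: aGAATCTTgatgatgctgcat
miR319a: tTGGACTGaagggagctccct
miR159a: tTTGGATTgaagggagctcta
miR396a-5p: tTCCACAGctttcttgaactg
miR398a-3p: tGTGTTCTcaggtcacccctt
miR393a-5p: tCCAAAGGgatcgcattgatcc
miR169a-5p: cAGCCAAGgatgacttgccga
miR163: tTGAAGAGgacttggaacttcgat
Among these guides, miR165a-3p and miR166a-3p have the same seed, and each of the other guides has a seed of its own.

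Every one of the 48 members held a site for its own microRNA with 0 to 5 differences from full pairing, counting mismatches, G:U pairs and at most 1 unpaired base. The sites lay in coding sequence in 42 members, in the 3′ UTR in 5 (SPL3, SPL4 and the 3 NF-YA genes) and in the 5′ UTR in CSD1. By comparison, of 31346 annotated genes with messenger RNAs, a match with at most 5 differences was found in 0.389% (miR160) to 9.01% (miR156), depending on the family, so at that limit a match alone does not mark a target. With at most 4 differences, a limit that every member but CSD2 and CCS1 meets, the share was 0.0383% (miR160) to 1.4% (miR396). The closest match of miR163 to any member had 7 differences, more than any member had to its own microRNA. The 3 HAM genes carry 1 and the same fully paired site for miR171a-3p. MYB33 and MYB65, targets of miR159, also match miR319 with 3 differences, and ARF16, a target of miR160, matches miR172 with 3. With 4 differences, PHV, REV and GRF2 also match miR156, and NF-YA5 matches miR172.

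No member passed the threshold. After Benjamini-Hochberg adjustment of the authors' p-values over the 19264 genes that had an FPKM of at least 1 in a genotype, 0 of 45 members tested were called, against 0 of all genes (0.0%). PXMT1, the miR163 target, was not called either, at 47.6 in mir163 and 1.32 in WT. Its p in the authors' deposited table was 5e-05, and its adjusted p was 0.0876. No gene tested had a lower p, though other genes can share it. AT1G15125 had a p of 0.0026 in that table and an adjusted p of 0.9996. MIR163, the mutated locus, had a p of 0.180 in that table and an adjusted p of 0.9996. The difference at MIR163 thus failed even an unadjusted limit of 0.05, at 0.0726 in mir163 and 20.5 in WT. With these p-values no gene could be called, whatever its difference in FPKM, since the lowest adjusted p over all genes was 0.0876. The count of 0 is thus not particular to the members. At an unadjusted p under 0.05 the count was also 0 of 45 members, against 192 of all genes (0.997%), of which 129 were higher in mir163 (0.67%) and 63 lower (0.327%). The lowest p of a member in the authors' deposited table was 0.167, for TCP3, and its adjusted p was 0.9996, as it was for the other members tested. CUC1 and NF-YA5 were under an FPKM of 1 in both genotypes and were not tested. SPL4 reached 1 in WT alone, so its lower value in mir163 was fixed by the filter. All values below are therefore descriptions of the deposited FPKM, and a p over the threshold does not show that a gene was equal in both genotypes.

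Of the 45 members tested, 19 had a higher FPKM in mir163 and 26 a lower one, against 51.3% higher and 48.7% lower among all genes. The 26 include SPL4, whose direction was fixed by the filter. Their median change in log2(FPKM + 1) was -0.05, against 0.0064 over all genes. Past a ratio of 1.25, a limit chosen after values were seen, 8 members were higher, against 9.79% of all genes, and 2 were lower, against 9.56%. The 8 were TCP2, TCP3, TCP4, GRF1, GRF2, GRF3, ARF6 and SPL3, and the 2 were SPL2 and CSD2. Thus 6 of the 8 belong to the TCP and GRF families. In 2 groups every tested member had a higher value in mir163 (GRF and ARF6/ARF8), though ARF8 was nearly level with a ratio of 1.007. In 3 groups every tested member had a lower value (HD-ZIP III, CSD with CCS1, and TIR1/AFB).

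**Figure D1:**
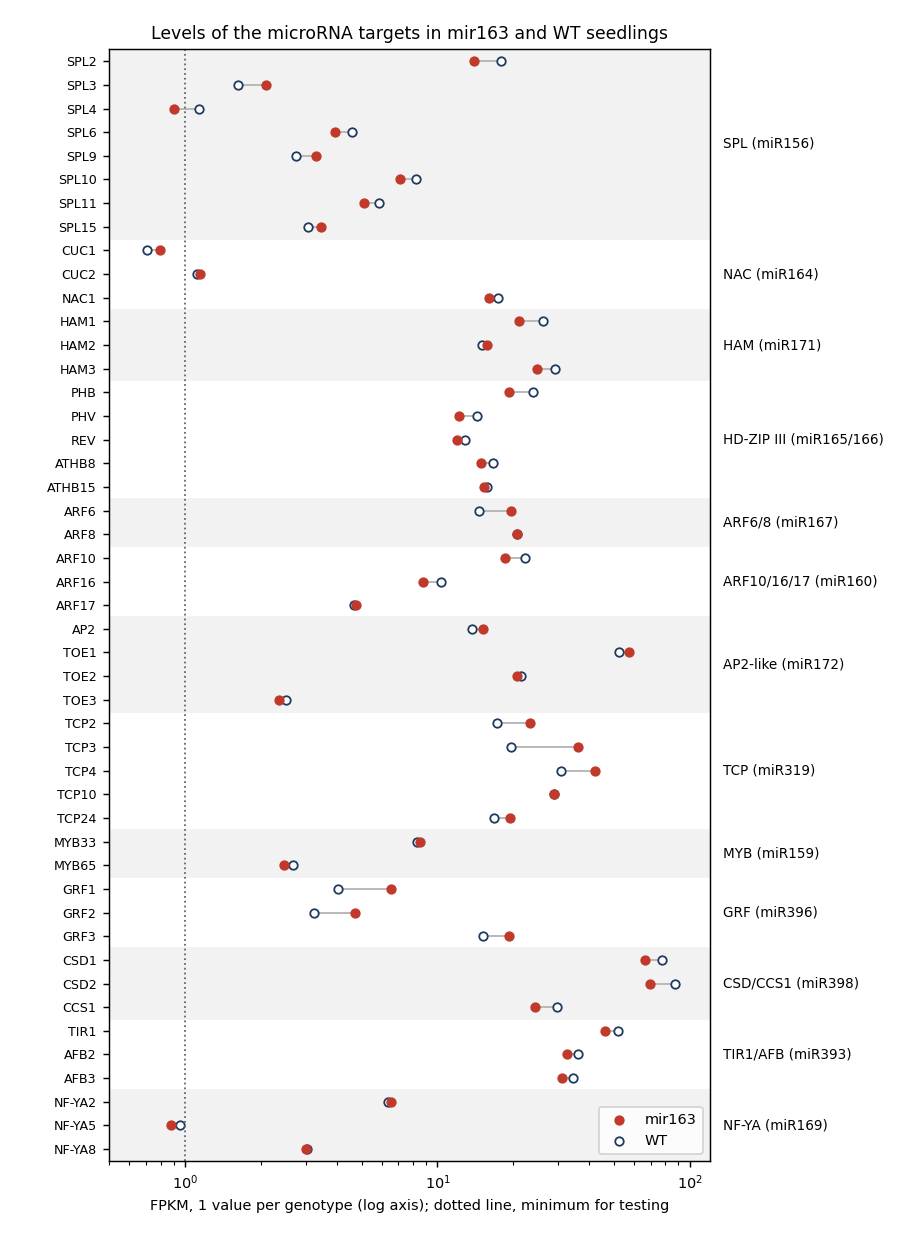
FPKM (log axis) of the 47 members in mir163 (filled) and WT (open), 1 value per genotype, grouped by family. Levels run from under 1 (CUC1, NF-YA5) to 69.3 in mir163 and 87.5 in WT (CSD2), and the widest gap on this axis is that of TCP3, 36.1 in mir163 and 19.6 in WT.

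The TCP genes targeted by miR319 had the widest single difference. These CIN-class factors slow cell division at leaf margins and promote leaf maturation. TCP3 (AT1G53230) had an FPKM of 36.1 in mir163 and 19.6 in WT, a ratio of 1.84, which placed it at percentile 98.3 of the log2 ratios of all genes tested. TCP4 (AT3G15030), the best studied of them, had 42.2 in mir163 and 30.8 in WT, a ratio of 1.37. TCP2 (AT4G18390) had 23.3 in mir163 and 17.2 in WT, a ratio of 1.35. These 3 genes had ratios over 1.25, and the remaining members differed less. TCP24 (AT1G30210) had 19.4 in mir163 and 16.8 in WT, while TCP10 (AT2G31070) was nearly level at 28.8 in mir163 and 28.9 in WT. Summed over the 5 genes the FPKM was 149.9 in mir163 and 113 in WT, and the median change in log2(FPKM + 1) was 0.41. Quantile normalization turned the sign of the nearly level TCP10 and of no other TCP gene.

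Their miR319 sites are shown so that small differences in pairing can be set beside the ratios. The shorter sites leave 1 base of the microRNA unpaired. Capitals mark bases that pair with the closest mature form by Watson-Crick rules, and each site lies in coding sequence.
TCP2: AGGGGgaCCCTTCAGTCCAA
TCP24: AGGGGgaCCCTTCAGTCCAA
TCP3: AGGGGtcCCCTTCAGTCCAt
TCP4: AGGGGtcCCCTTCAGTCCAg
TCP10: AAGGgGtaCCCTTCAGTCCAg
On TAIR10.1 these lie at chr4:10163402-10163421 (minus strand, TCP2), chr1:10628989-10629008 (minus, TCP24), chr1:19850522-19850541 (minus, TCP3), chr3:5063301-5063320 (plus, TCP4) and chr2:13221210-13221230 (minus, TCP10). TCP2 and TCP24 share 1 site, with 3 differences, and their ratios were 1.35 and 1.16. TCP3, TCP4 and TCP10 each have 4 differences, and their ratios were 1.84, 1.37 and 0.998. Whether these ratios differ from each other was not tested.

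An annotated antisense gene lies over TCP3. It is given here for that overlap, after member values were seen. The long non-coding gene AT1G53233 overlaps TCP3 on the opposite strand over 1525 bases, and it had an FPKM of 11.7 in mir163 and 9.81 in WT. Without strand information, reads from the 2 genes cannot be told apart.

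Relatives of the TCP genes that lack a close miR319 site lay on both sides of their WT levels. Of 5 such genes, 3 were higher and 2 lower in mir163, with a median change in log2(FPKM + 1) of 0.04. TCP14 and TCP15, class I factors of cell proliferation, had 64.8 and 20.4 in mir163 and 61.5 and 18.8 in WT. TCP5, TCP13 and TCP17, the CIN-class factors without a site, were singled out after their values were seen. TCP5 had 14.1 in mir163 and 13.8 in WT. TCP13 had 10.2 in mir163 and 13.3 in WT, and TCP17 had 4.24 in mir163 and 5.13 in WT. The difference between TCP genes with and without a site was not tested, since genes are not replicates of a genotype.

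A known downstream gene of TCP4 was looked up after the TCP values were seen. LOX2, the lipoxygenase of jasmonate synthesis whose promoter TCP4 activates, had an FPKM of 50.6 in mir163 and 25.4 in WT, a ratio of 2.00. Its p in the authors' deposited table was 0.0154, and its Benjamini-Hochberg adjusted p over all genes was 0.9996. IAA3, an auxin repressor also reported downstream of TCP factors, had 54.4 in mir163 and 61.4 in WT.

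The GRF genes, which drive cell proliferation in young leaves, were all higher in mir163. GRF1 (AT2G22840) had an FPKM of 6.53 in mir163 and 4.02 in WT, a ratio of 1.62. GRF2 (AT4G37740) had 4.72 in mir163 and 3.24 in WT, a ratio of 1.46. GRF3 (AT2G36400), the most abundant of the 3, had 19.2 in mir163 and 15.2 in WT, a ratio of 1.26. All 3 lay over a ratio of 1.25, and their median change in log2(FPKM + 1) was 0.43. With a pseudocount of 5, which weighs down low genes such as GRF1 and GRF2, that median was 0.26. SBE2.1, a starch-branching enzyme gene named after its value was seen, overlaps GRF3 by only 5 bases on the opposite strand. It had 24.6 in mir163 and 13.4 in WT, and its part in the GRF3 value was not tested. The long non-coding gene AT2G08795, also named after member values were seen, overlaps GRF3 by 227 bases on the opposite strand and was not analysed here.

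The miR396 sites are printed because they are nearly the same in the 3 genes, with 1 unpaired base in the target.
GRF1: tcGTTCAAGAAAGcCTGTGGAA
GRF2: tcGTTCAAGAAAGcCTGTGGAA
GRF3: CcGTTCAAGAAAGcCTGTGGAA
They lie in coding sequence at chr2:9729944-9729965 (plus strand, GRF1), chr4:17726404-17726425 (minus, GRF2) and chr2:15271745-15271766 (minus, GRF3) of TAIR10.1. GRF5 and GRF6, whose closest match to miR396 has 7 and 6 differences, also had higher values in mir163. GRF5 had 2.26 in mir163 and 1.73 in WT, and GRF6 had 2.85 in mir163 and 2.14 in WT. Higher values in this family were thus found with and without a site. Of the further miR396 targets in the table, GRF4 had 9.05 in mir163 and 7.19 in WT, and GRF9 had 1.49 in mir163 and 1.64 in WT. The GIF proteins, coactivators that bind GRF factors and were added to the list later, had ratios of 1.04 (GIF1), 0.955 (GIF2) and 0.849 (GIF3).

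**Figure D2:**
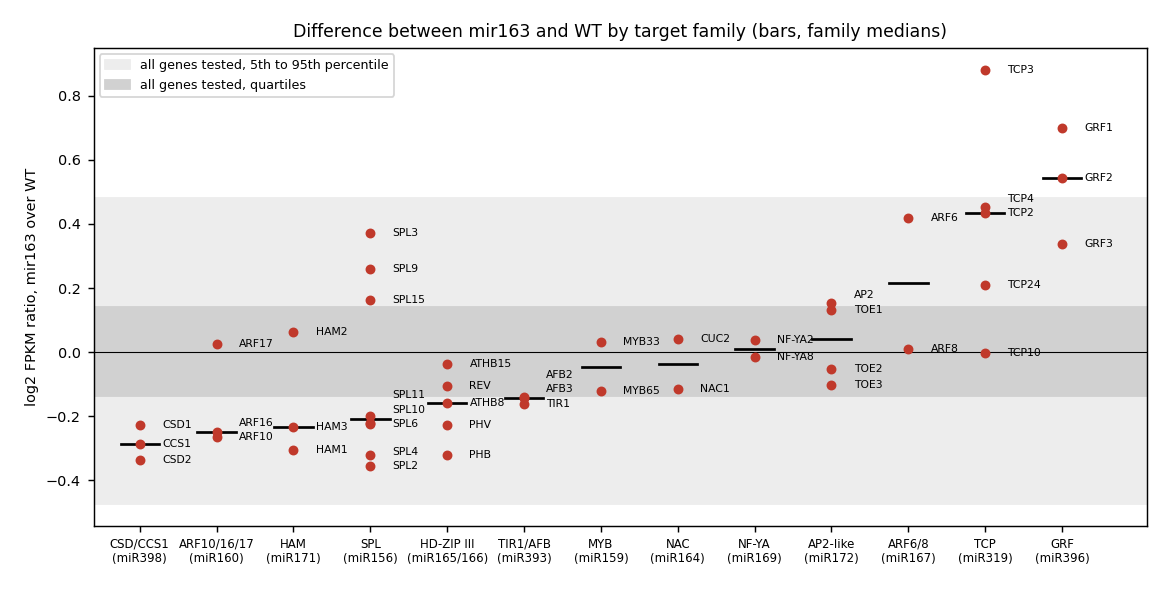
Log2 FPKM ratio (mir163 over WT) of each member tested, by family in order of the family median (bars), over the quartiles and the 5th to 95th percentiles of all genes tested. TCP3, GRF1 and GRF2 lie over the 95th percentile of 0.48, and no member lies under the 5th percentile of -0.48.

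The miR398 targets include CSD2 and CSD1, the members with the highest FPKM, and all 3 were lower in mir163. CSD2 (AT2G28190), the copper/zinc superoxide dismutase of the chloroplast, had an FPKM of 69.3 in mir163 and 87.5 in WT, a ratio of 0.792. CSD1 (AT1G08830), its cytosolic counterpart, had 66.2 in mir163 and 77.5 in WT, a ratio of 0.854. CCS1 (AT1G12520), the chaperone that loads copper into both, had 24.4 in mir163 and 29.7 in WT, a ratio of 0.819. The ratios of the 3 genes lay close together, and their median change in log2(FPKM + 1) was -0.28. The microRNA host gene MIR398c had 6.58 in mir163 and 6.72 in WT.

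The miR398 sites include the least paired of the member sites and are printed to show how they differ.
CSD1: AAGGGGTttCCTGAGAtCACA
CSD2: tgcGGGTGACCTGgGAAACA
CCS1: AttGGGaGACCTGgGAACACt
CSD1 has 3 differences, in the 5′ UTR, and its site is split over exons 1 and 2 within chr1:2827177-2827685 (plus strand). CSD2 (chr2:12015572-12015591, plus strand) and CCS1 (chr1:4267521-4267541, minus strand) have 5 differences each, in coding sequence of TAIR10.1.

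Other superoxide dismutases, which lack a close miR398 site, were not all lower. Of 5, 3 had a higher value in mir163 and 2 a lower one, with a median change in log2(FPKM + 1) of 0.16. FSD1, the iron enzyme that replaces copper/zinc enzymes when copper is short, had the highest level at 1149 in mir163 and 1375 in WT. MSD1, the manganese enzyme of mitochondria, had 148 in mir163 and 132 in WT. The chloroplast iron enzymes FSD2 and FSD3, named after their values were seen, had ratios of 1.35 and 1.26. COX5b-1, another miR398 target and a cytochrome oxidase subunit, had 62.8 in mir163 and 56.9 in WT, the opposite order to CSD1 and CSD2. SPL7, the activator of copper-deficiency genes and also named after its value was seen, had 13.1 in mir163 and 13.7 in WT. Copper genes added to the list after member values were seen had lower FPKM in mir163, as had 48.7% of all genes tested. Whether lower values are particular to copper genes was not tested. The transporter COPT2 had 46.2 in mir163 and 74.97 in WT, with a p of 0.164 in the authors' deposited table. The copper chaperone CCH had 425 in mir163 and 472 in WT, and the plastocyanins PETE1 and PETE2 had 316 and 3963 in mir163 and 372 and 4267 in WT.

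The HD-ZIP III genes, which specify the upper side of leaves and pattern the vasculature, were lower in mir163 in 5 of 5 cases by small amounts. PHB (AT2G34710) had an FPKM of 19.2 in mir163 and 23.99 in WT, a ratio of 0.801. PHV (AT1G30490) had 12.2 in mir163 and 14.3 in WT, a ratio of 0.854. ATHB8 (AT4G32880), a gene of the procambium, had 14.9 in mir163 and 16.6 in WT. The closer relatives PHB and PHV thus had the lower ratios of the family. REV (AT5G60690), a regulator of lateral meristems, had 11.97 in mir163 and 12.9 in WT, and ATHB15 (AT1G52150) had 15.3 in mir163 and 15.7 in WT. The median change in log2(FPKM + 1) was -0.15. All 5 carry a site with 3 differences that spans an exon junction. ZPR1 and ZPR3, small proteins that bind and block HD-ZIP III factors and were added later, had ratios of 0.886 and 0.648. ZPR2 had 1.15 in mir163 and 2.15 in WT.

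Among the genes of meristems and organ boundaries, the HAM factors, which keep stem cells undifferentiated, were lower in mir163 in 2 of 3 cases. HAM1 (AT2G45160) had an FPKM of 21.1 in mir163 and 26.1 in WT, a ratio of 0.808. HAM3 (AT4G00150) had 24.9 in mir163 and 29.3 in WT, a ratio of 0.8497, and HAM2 (AT3G60630) had 15.7 in mir163 and 14.97 in WT. The 3 genes carry the same site, printed here as the only fully paired site of the members.
HAM1, HAM2 and HAM3: GATATTGGCGCGGCTCAATCA
It lies in coding sequence at chr2:18619128-18619148 (HAM1), chr3:22411544-22411564 (HAM2) and chr4:58411-58431 (HAM3) of TAIR10.1, each on the minus strand. Of the relatives without a close miR171 site, HAM4, named after its value was seen, had 6.55 in mir163 and 4.75 in WT, a ratio of 1.38. SCR and SHR, which pattern the root ground tissue, had ratios of 0.981 and 0.946.

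The miR164 targets of organ boundaries were near the lower limit. CUC1 (AT3G15170) had an FPKM of 0.793 in mir163 and 0.707 in WT, and CUC2 (AT5G53950) had 1.145 in mir163 and 1.11 in WT. CUC3, the boundary gene without a site, had 0.839 in mir163 and 0.788 in WT. NAC1 (AT1G56010), which acts in lateral root formation, was well expressed, at 16.0 in mir163 and 17.3 in WT. Of 3 further miR164 targets all had lower values in mir163. ORE1, a promoter of leaf senescence, had 10.96 in mir163 and 13.3 in WT, and NAC080 had 7.12 in mir163 and 9.17 in WT.

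The SPL genes of miR156, which advance the juvenile plant toward the adult phase, were split in direction, with 3 higher and 5 lower among 8 tested. SPL2 (AT5G43270), the most abundant, had an FPKM of 13.9 in mir163 and 17.8 in WT, a ratio of 0.781, the lowest ratio of the members. SPL10 (AT1G27370) had 7.07 in mir163 and 8.24 in WT, and its neighbour SPL11 (AT1G27360) had 5.09 in mir163 and 5.84 in WT. SPL10 and SPL11 are close copies, so how the authors' counting split shared reads is uncertain. SPL6 (AT1G69170) had 3.92 in mir163 and 4.58 in WT. These 4 genes, all with the same site, had lower values in mir163. SPL9 (AT2G42200) and SPL15 (AT3G57920), a pair that acts on leaf initiation rate and carries the same site, had higher ones, with 3.30 and 3.45 in mir163 and 2.75 and 3.08 in WT. The small factors SPL3 (AT2G33810) and SPL4 (AT1G53160), with their site in the 3′ UTR, had low values. SPL3 had 2.10 in mir163 and 1.62 in WT, and SPL4 had 0.905 in mir163 and 1.13 in WT. The 5 lower genes include SPL4, whose direction was fixed by the filter.

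The shared site and that of SPL3 are printed to show how little they differ.
SPL2, SPL6, SPL9, SPL10, SPL11, SPL13A and SPL15: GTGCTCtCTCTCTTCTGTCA
SPL3: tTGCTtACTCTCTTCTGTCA
Examples on TAIR10.1 are chr5:17360758-17360777 (minus strand, coding sequence of SPL2), chr2:17589066-17589085 (plus, coding sequence of SPL9) and chr2:14305878-14305897 (plus, 3′ UTR of SPL3). Among 6 SPL genes without a close site, 2 were higher and 4 lower, with a median change in log2(FPKM + 1) of -0.06, against -0.16 for the 8 members tested. The most abundant, SPL1 and SPL12, had 47.3 and 24.6 in mir163 and 51.1 and 28.5 in WT. SPL5, a further target, had 0.709 in mir163 and 0.974 in WT and was not tested. SOC1, a flowering gene that SPL factors activate and that was added later, had 8.43 in mir163 and 9.36 in WT. The annotated antisense genes of SPL3, SPL4, SPL9 and SPL15 overlap them on the other strand. Of these, AT3G57910, over SPL15 and also chosen after member values were seen, had 6.70 in mir163 and 5.47 in WT. It covers all 1793 bases of SPL15, and the antisense gene of SPL3 covers 1046 of its 1072 bases. Reads from overlapping genes cannot be told apart without strand information.

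The AP2-like repressors of flowering, which miR172 restrains, had the median nearest 0 among the families of at least 4 genes tested. TOE1 (AT2G28550), the most abundant, had an FPKM of 57.6 in mir163 and 52.5 in WT. AP2 (AT4G36920), which also specifies floral organs, had 15.2 in mir163 and 13.7 in WT. TOE2 (AT5G60120) had 20.7 in mir163 and 21.4 in WT, and TOE3 (AT5G67180) had 2.34 in mir163 and 2.52 in WT. Their ratios lay between 0.932 and 1.11, and their median change in log2(FPKM + 1) was 0.04. The further targets SMZ and SNZ had ratios of 1.17 and 1.12. The relatives ANT and AIL6, growth factors without a close site, had 8.03 and 2.36 in mir163 and 7.73 and 2.95 in WT.

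Genes of the auxin response belong to 3 groups by microRNA. The receptors of miR393, F-box proteins that bind auxin, were lower in mir163 by nearly the same ratio. TIR1 (AT3G62980) had an FPKM of 46.3 in mir163 and 51.7 in WT, AFB2 (AT3G26810) had 32.6 in mir163 and 35.9 in WT, and AFB3 (AT1G12820) had 31.1 in mir163 and 34.3 in WT. Their ratios were 0.895, 0.908 and 0.906, the narrowest range of any family of 3 or more. AFB1, listed as a relative, holds a miR393 match with 3 differences and had a ratio of 0.935. AFB5, without a close match, had 41.2 in mir163 and 38.1 in WT.

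The repressing ARF factors of miR160 and the activating ones of miR167 had medians of opposite sign. ARF10 (AT2G28350) had an FPKM of 18.6 in mir163 and 22.3 in WT, ARF16 (AT4G30080) had 8.73 in mir163 and 10.4 in WT, and ARF17 (AT1G77850) had 4.75 in mir163 and 4.67 in WT. Quantile normalization turned the sign of ARF17, whose ratio was 1.02. ARF6 (AT1G30330), which with ARF8 (AT5G37020) promotes flower and hypocotyl growth, had 19.6 in mir163 and 14.6 in WT, a ratio of 1.34. ARF8 was level, at 20.7 in mir163 and 20.6 in WT. The host genes MIR167a and MIR167d had 2.45 and 2.58 in mir163 and 1.33 and 2.55 in WT. Among 7 ARF genes without a site for either microRNA as close as those of the members, 2 were higher and 5 lower. ARF1 and ARF9 had 29.9 and 12.6 in mir163 and 32.0 and 12.5 in WT.

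The 2 MYB members and the 2 NF-YA members tested had ratios between 0.919 and 1.03. MYB33 (AT5G06100), a GAMYB-like factor of anther and seed development that miR159 keeps silent in leaves, had an FPKM of 8.50 in mir163 and 8.32 in WT. MYB65 (AT3G11440), its redundant partner, had 2.46 in mir163 and 2.68 in WT. CP1, a cysteine protease gene that rises when these MYB factors are active and was added later, had 3.73 in mir163 and 3.03 in WT. The host gene MIR159b had 9.34 in mir163 and 26.5 in WT, with a p of 0.421 in the authors' deposited table. The ratio of this host gene, which is 196 bases long, was 0.352. Mature microRNAs were not measured here, for this or any other host gene.

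NF-YA2 (AT3G05690), a subunit of the CCAAT-binding factor, had an FPKM of 6.54 in mir163 and 6.38 in WT. NF-YA8 (AT1G17590) had 3.00 in mir163 and 3.03 in WT, and NF-YA5 (AT1G54160), which acts in drought tolerance, had 0.879 in mir163 and 0.955 in WT. The host gene MIR169k was listed at 0 in mir163 and had 7.62 in WT, with a p of 0.02425 in the authors' deposited table and a Benjamini-Hochberg adjusted p of 0.9996. All 5 further NF-YA targets had lower values in mir163, among them NF-YA1 with 17.2 in mir163 and 17.98 in WT and NF-YA9 with 4.68 in mir163 and 5.62 in WT. NF-YA10, named after its value was seen, was tested through its WT value alone, at 0.851 in mir163 and 1.32 in WT. NF-YA4 and NF-YA7, without a close site, were lower too, with ratios of 0.874 and 0.834.

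**Figure D3:**
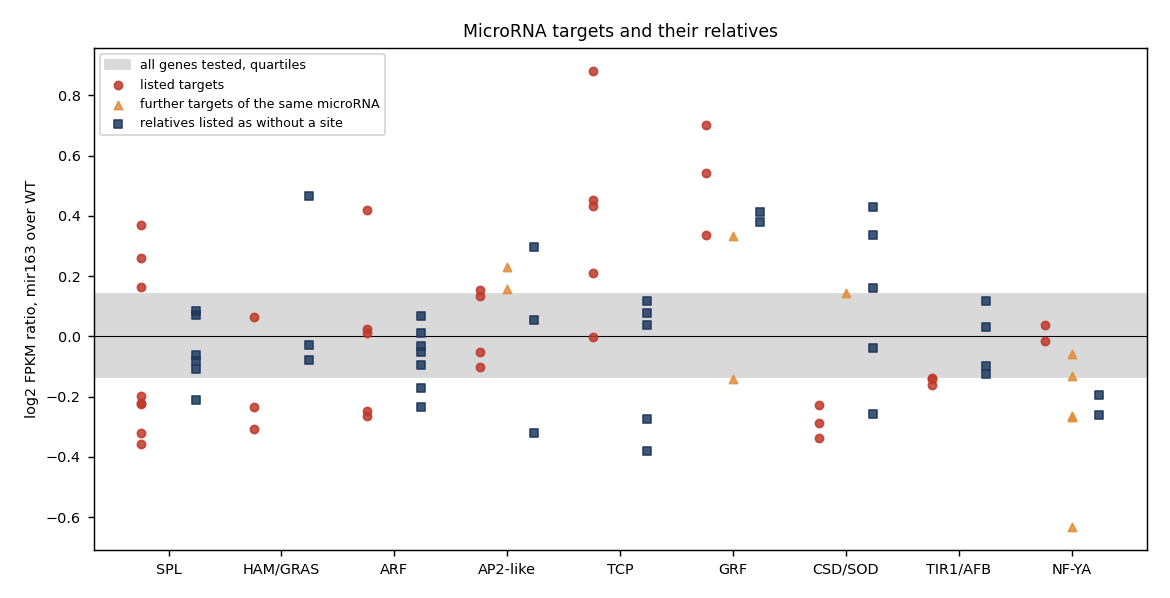
Log2 FPKM ratio (mir163 over WT) of listed targets (circles), further targets of the same microRNA (triangles) and relatives listed as without a site (squares), by family. GRF genes lie over 0 with and without a site apart from GRF9, while 4 of 5 TCP targets lie over 0 and their relatives lie on both sides.

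The 3 lists can be set side by side, against 51.3% of all genes higher and 48.7% lower in mir163. Of 37 relatives tested, 17 were higher and 20 lower in mir163, with a median change in log2(FPKM + 1) of -0.03, against -0.05 for the 45 members. Of 32 further conserved targets tested, 12 were higher and 20 lower, with a median of -0.05. The 20 include NF-YA10, which was tested through its WT value alone. None of these passed the threshold, and whether the lists differ was not tested. The relatives include AFB1, with a miR393 match of 3 differences, and ARF1 and ANT, with matches of 5. The members can also be grouped by closeness of pairing, again with no test. The median change was -0.23 for the 3 members with a fully paired site, -0.05 for the 9 tested with 1 difference, -0.12 for 10 with 2, -0.01 for 17 with 3, 0.42 for 4 with 4 and -0.30 for 2 with 5. The 4 with 4 differences are TCP3, TCP4, TCP10 and ARF6, and the 2 with 5 are CSD2 and CCS1, so these bins repeat the families.

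**Figure D4:**
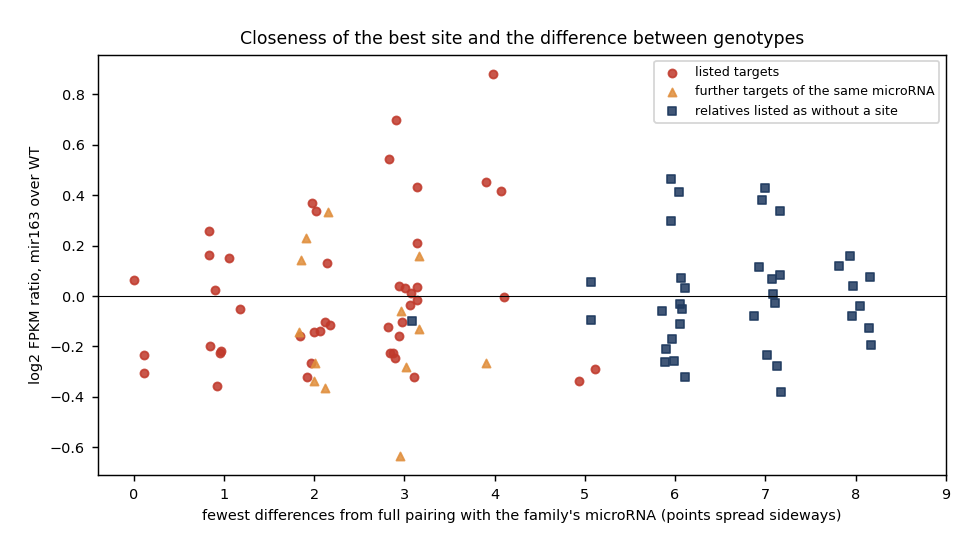
Fewest differences between the best site and the family's microRNA against the log2 FPKM ratio (mir163 over WT) for listed targets, further targets and relatives tested. Members run from 0 to 5 differences and relatives from 3 (AFB1) to 8, and both lie on both sides of 0 at most counts.

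The size of the differences can be set beside those that the authors' test called at an unadjusted p under 0.05. Among 11265 genes with a mean FPKM from 5 to 50, where 31 of the members lie, 105 had such a p in the authors' deposited table. The smallest ratio among these 105, in either direction, was 1.836, and their median was 2.70. TCP3, with a ratio of 1.843 in mir163 over WT and a p of 0.167 in the authors' deposited table, was just past that smallest size without such a p. The other members among the 31 had smaller ratios. The median size of the log2 ratio was 0.21 for members and 0.14 for all genes tested.

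**Figure D5:**
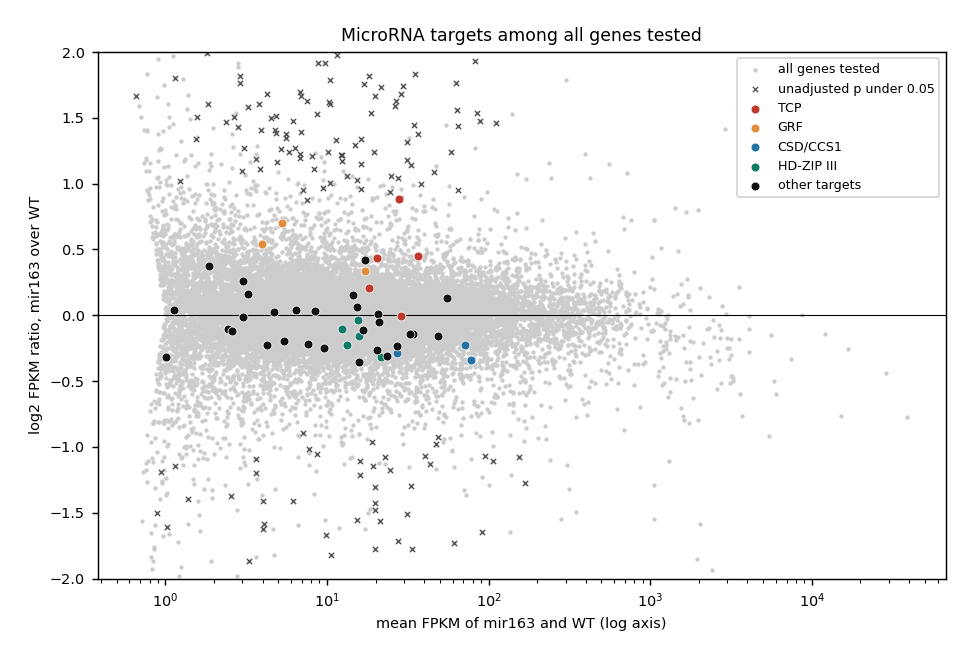
Mean FPKM (log axis) against log2 FPKM ratio (mir163 over WT) for 19146 genes tested with a log2 ratio within 2 of 0, with members in colour and genes at an unadjusted p under 0.05 as crosses. Members lie inside the cloud of all genes, and 109 genes beyond the axis and 9 listed at 0 in a genotype are not drawn.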

How the data were processed

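RNA came from whole 7-day-old seedlings, 3 mir163 and 3 WT libraries. Per the labels' protocols it was taken with Trizol, and the kit was NEBNext Ultra RNA, with no statement on strand. Of software, bcl2fastq 2.17.1.14, TopHat and Cufflinks are listed in the submitters' processing notes, with the build TAIR10. Levels are FPKM per the file headers, 1 per gene and genotype. The log2 fold change deposited beside them is that of the FPKM columns, mir163 over WT. The deposited p-value is unadjusted, and the sources used here do not name its test. Benjamini-Hochberg adjustment of these p-values covered the 19264 genes with an FPKM of at least 1 in a genotype, at a threshold of 0.05. Limma, chosen for values per library, could not be run on 1 value per genotype. Medians are on the log2(FPKM + 1) scale, and ratios are plain.

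The members and lists were chosen with earlier results of these data known. Every member in the table is named, with the mutated locus and its targets, the host genes in the table (7 of 68 annotated), and per family up to 2 relatives and 2 further targets with the highest mean. Genes outside that rule are said to be chosen later. Sites were sought in annotated messenger RNAs, with at most 1 gap. Of the 48 members, 16 overlap another annotated gene, always on the opposite strand. Alternatives were other filters, pseudocounts, scalings, a fold limit, and leaving out overlapped members. Software was matplotlib 3.10.9, scipy 1.17.1, pandas 2.3.3 and numpy 2.4.6 under Python 3.11.15, and the adjustment was tested on simulated data. The simulated p-values went far lower than the deposited ones, whose lowest was 5e-05 among genes tested. That check therefore does not show which changes could be called from the deposited p-values.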

Additional observations from a re-analysis of the deposited data

How the results depend on the processing

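After Benjamini-Hochberg adjustment of the authors' p-values, 0 members were called with no filter (47 members) and with a minimum FPKM of 5 (34 members), and 0 had an unadjusted p under 0.05 in either case. The lowest adjusted p over all genes was 0.0876, against 0.0907 without a filter and 0.0925 with the minimum of 5. The filters leave the deposited p-values as they are, and the lowest of a member was 0.167 in each case. These counts of 0 therefore say little about the processing. It follows that no member had an unadjusted p under 0.05 with a ratio of at least 2. The median change in log2(FPKM + 1) over the members was -0.05, and it lay between -0.10 (minimum FPKM of 5) and -0.03 (pseudocount of 5) over the alternatives. Leaving out members that overlap another annotated gene, an alternative chosen after seeing the data, gave -0.03 over 31 members. Family medians moved by less than 0.1, except that of the GRF genes, which was 0.26 with a pseudocount of 5. Medians near 0 changed sign within that range. That of the NAC genes was -0.04, and 0.02 with no filter. That of the MYB genes was -0.03, and 0.03 with a minimum of 5. That of the NF-YA genes was 0.01, and -0.01 with no filter and -0.0019 with quantile normalization. The SPL median was -0.16, and -0.08 with a pseudocount of 5, and the AP2-like median was 0.04, and 0.13 with a minimum of 5. Median-ratio scaling divided mir163 by 1.005 relative to WT, too small a step to turn most signs, and kept the direction of 45 of 45 members. Quantile normalization kept that of 43, all but ARF17 and TCP10. No paired analysis was possible because each genotype has a single value, and no library could be left out, and the depth behind each value is unknown.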

Other observations

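Conserved microRNA targets outside the 12 families, of which none passed the threshold, had values on both sides of their WT levels. Of the miR395 targets of sulfate use, the ATP sulfurylases APS1 and APS4 had an FPKM of 279 and 49.9 in mir163 and 340.0 and 51.9 in WT. SULTR2;1, a sulfate transporter named after its value was seen, had 59.1 in mir163 and 38.5 in WT, a ratio of 1.54 with a p of 0.290 in the authors' deposited table. Both regulators of phosphate uptake were lower. PHO2 had 42.8 in mir163 and 51.0 in WT, and NLA had 7.81 in mir163 and 10.1 in WT. LAC4, a laccase of lignin formation, had 16.9 in mir163 and 13.9 in WT, while LAC3 had 12.7 in mir163 and 14.5 in WT. LCR, an F-box target of miR394, had 36.2 in mir163 and 36.6 in WT.

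AGO1, the Argonaute of microRNAs and a target of miR168, had 67.8 in mir163 and 77.6 in WT. The auxin factors ARF2 and ARF4, targets of trans-acting small RNAs, had 75.1 and 17.8 in mir163 and 76.6 and 18.2 in WT. DCL1, which cuts microRNA precursors and is itself a target of miR162, had 8.36 in mir163 and 8.67 in WT. Among host genes of the 12 families, MIR156c had 4.67 in mir163 and 8.83 in WT, with a p of 0.0898 in the authors' deposited table. MIR157c, of a related microRNA, had 194 in mir163 and 257 in WT.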
